A study of Sus scrofa domesticus with 150 samples.

Results

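Genes of the transforming growth factor beta (TGF-beta) and activin pathway were followed through the healing of full-thickness skin wounds in pigs. The 10 genes were chosen by name, as rows of the gene count table with that symbol: the ligand genes TGFB1, TGFB2 and TGFB3, the activin subunit gene INHBA, the latent binding protein genes LTBP1 and LTBP2, the receptor genes TGFBR1 and TGFBR2, the inhibitory SMAD gene SMAD7, and TGFBI, a matrix gene named for its induction by TGF-beta. All 10 had a row among the 30461 rows of the table, and 9 of them had counts. INHBA, TGFB1, TGFBR2, TGFB3 and TGFBI stood above unwounded skin over most of the healing period, INHBA by up to 5.83 on the log2 scale. Summed over all days, INHBA, TGFB1, TGFB2 and TGFBR2 were lower at the wound edge than in the wound center, though not in every window.

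TGF-beta ligands are secreted bound to a latency peptide and to latent binding proteins, and are held in the matrix until they are released. Released TGF-beta, and activin, bring together type II and type I receptor kinases, which phosphorylate SMAD2 and SMAD3 so that these enter the nucleus with SMAD4. In skin repair the pathway is known for its action on inflammatory cells, on fibroblasts that lay down matrix and on keratinocyte growth, and SMAD7 acts as its feedback inhibitor.

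In the study, 12 circular wounds of 2 cm diameter were made on the back of each of 6 female Yorkshire-mix pigs. All wounds were dressed alike and no test treatment was given, and a topical antibiotic was put on biopsied sites. Day 0 samples were the whole excised skin, taken before any dressing, whereas the wound samples were biopsies. The reference group was the skin removed at wounding on day 0, 1 sample from each of the 6 animals, and no unwounded skin of a later day was analysed here. Each of 72 wounds gave 1 edge and 1 center biopsy on 1 of 14 days, which made 29 states of day and location with day 0. Animals 1 to 3 were sampled on days 1, 3, 5, 7, 11, 15 and 21 and animals 4 to 6 on days 2, 4, 6, 9, 13, 16 and 19. Each animal gave 2 wounds on the earlier days and 1 wound on days 15, 16, 19 and 21. A single day and the set of 3 animals sampled on it cannot be told apart.

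Counts were therefore summed per animal and location over windows of 2 sampling days, which left 1 value from each of the 6 animals in every group. The 7 windows were days 1 and 2, 3 and 4, 5 and 6, 7 and 9, 11 and 13, 15 and 16, and 19 and 21. Levels are CPM, counts scaled to the same library total in every sample. Differences are log2 fold changes from edgeR's quasi-likelihood test after TMM scaling, with their standard error (SE) and a Benjamini-Hochberg adjusted p over all genes tested. A gene is said to have risen, to have fallen, or to have been higher or lower by the test, where the adjusted p was under 0.05. As examples of the values within the 2 sets of animals, the mean difference of log2(1+CPM) from day 0 was 5.545 in animals 1 to 3 and 5.046 in animals 4 to 6 for INHBA in the center on days 7 and 9. It was 2.829 and 2.934 for TGFB1 in the center on days 11 and 13, and 0.961 and 0.133 for TGFB2 at the edge on days 19 and 21.

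Libraries held 13133379 to 24895572 counts, with a median of 17643938.5. No gene of the 9 was at 0 in any sample, and the lowest count was 34, for INHBA. The library of day 0 skin replicate 2 and 7 wound libraries (day 2 center replicate 2, day 3 center replicate 4, day 3 edge replicate 6, day 5 edge replicate 6, day 6 center replicate 5, day 9 center replicate 5 and day 11 center replicate 1) lay apart from the other samples of their state over all genes. Calls of the 9 genes that were gained or lost without these 8 libraries are given beside the results. Markers went with the labels as group medians, which do not show this for each single library. The 9 keratinocyte genes summed to a median of 53370 CPM in day 0 skin and to 31930 to 53840 CPM at the edge. Their medians in the center were 146.6 to 989.6 CPM up to days 11 and 13. In the center they reached 6394 CPM on days 15 and 16 and 38870 CPM on days 19 and 21. In the center on days 1 and 2, 7 skeletal muscle genes ranged from 2.183 to 32980 CPM over the 6 animals. No marker was at 0 in every animal of a group. In such bulk samples fewer cells of a type and less RNA per cell cannot be told apart.

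The identities of 2 rows limit what can be said. The LTBP2 row (ENSSSCG00025011751) was a pseudogene model of 477 bases on the minus strand of contig LUXX01028809.1, positions 178623 to 179145, and held 0 counts in all 150 samples. It lay inside the row named NPC2 (positions 178341 to 300975 of the same contig, plus strand, mean count 7241.2), whose description also carried an LTBP2 protein match. Reads of the 2 genes cannot be told apart there, so no level of LTBP2 is given. The INHBA row (ENSSSCG00025000347, contig LUXX01000316.1, positions 585752 to 604076, minus strand) took its name from a protein match, and its model was classed as a long noncoding RNA.

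**Figure D1:**
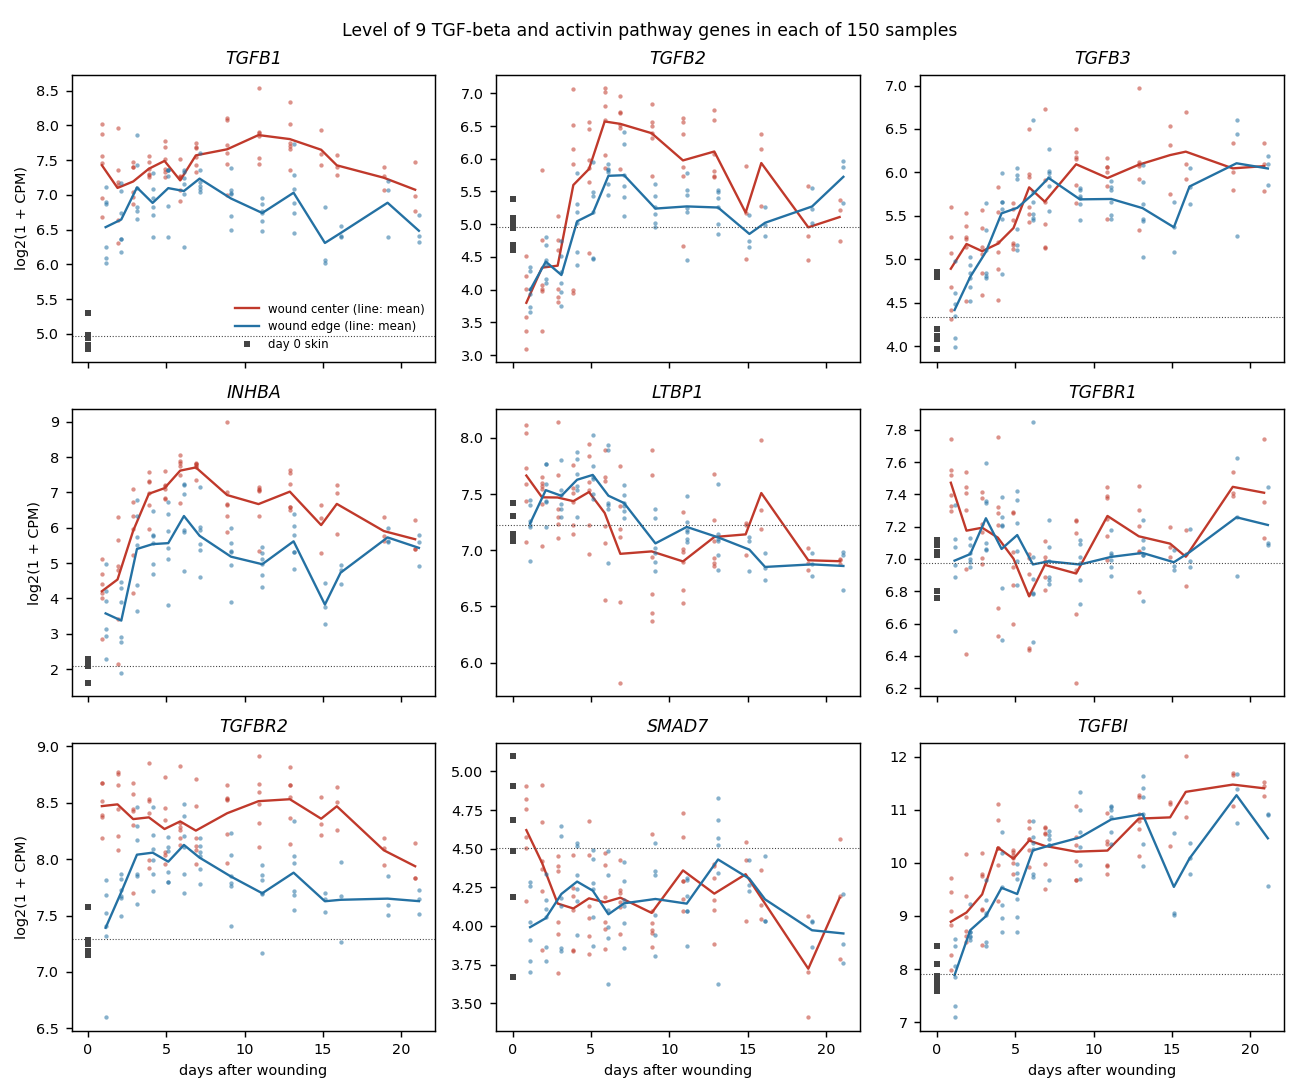
Level of each of the 9 genes in each of the 150 samples, as log2(1+CPM) on the vertical axis against the day after wounding. Points are single samples of day 0 skin, wound center and wound edge, lines join the day means of center and of edge, and the dotted line is the day 0 mean. The lines of INHBA and TGFB1 lie above the day 0 mean on every later day, whereas those of LTBP1, TGFBR1 and SMAD7 lie closer to it.

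Whether the pathway's genes differed between wound and unwounded skin was asked first in the wound center. On days 1 and 2, 4 of the 9 genes had risen (31.9% of all genes tested) and 1 had fallen (34.4%). On days 3 and 4, 5 had risen (34.7%) and 1 had fallen (33.4%). From days 5 and 6 none had fallen, while 34.8%, 34.3%, 32.9%, 31.9% and 24.4% of all genes had in the 5 later windows. The number that had risen was 6 on days 5 and 6 (37%), 6 on days 7 and 9 (34.2%), 7 on days 11 and 13 (32.7%), 6 on days 15 and 16 (31.6%) and 6 on days 19 and 21 (25.2%). The rises thus took up a larger share of the 9 genes than of all genes in every window, and the falls a smaller one. The genes were chosen with earlier results of these data known, and the 7 windows share the same day 0 samples. These shares are therefore a description and not a test of the 9 genes.

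At the edge, 2 of the 9 had risen (26.6% of all genes) and 2 had fallen (23.1%) on days 1 and 2. The number that had risen was 6 on days 3 and 4 (29%), 7 on days 5 and 6 (31.8%), 6 on days 7 and 9 (26.8%), 6 on days 11 and 13 (24.5%), 5 on days 15 and 16 (16%) and 7 on days 19 and 21 (20.4%). None had fallen in those 6 windows, in which 27.2%, 30.1%, 25.8%, 24.3%, 13.4% and 20% of all genes had. The median log2 fold change of the 9 genes against day 0 lay between 0.51 and 1.61 in the center and between 0.18 and 0.78 at the edge, beside medians of all genes between -0.037 and 0.029 in the comparisons of the study. Center and edge were set against the same 6 day 0 samples.

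**Figure D2:**
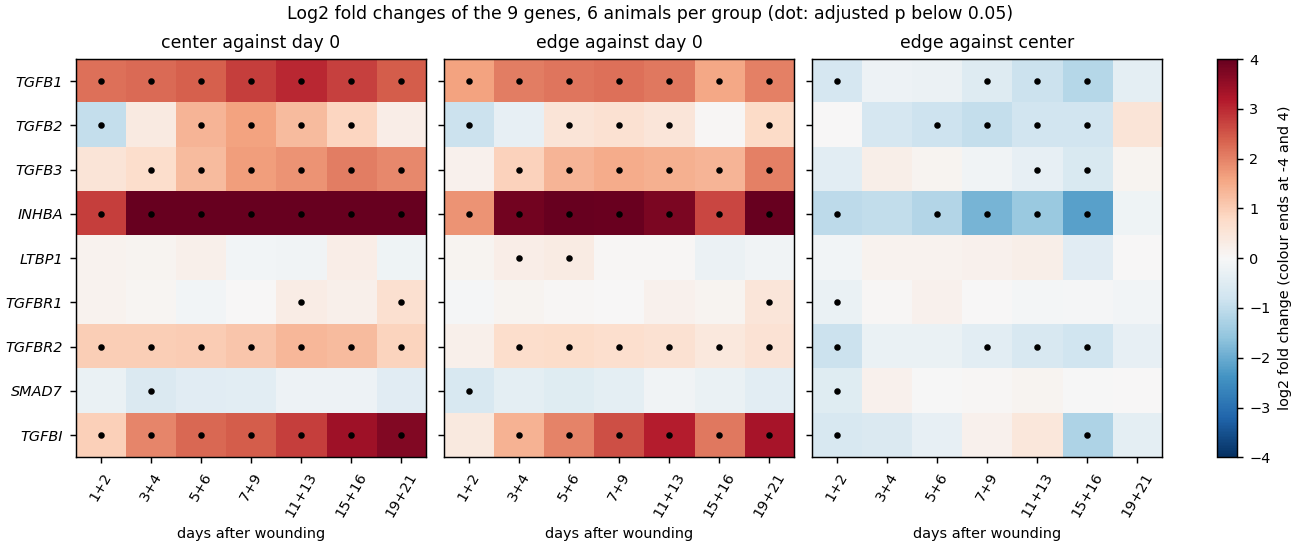
Log2 fold change of the 9 genes with counts in the 7 windows, for center against day 0, edge against day 0 and edge against center. Colour runs from lower to higher and ends at 4 in either direction, and a dot marks an adjusted p under 0.05. The INHBA and TGFB1 rows carry a dot in all 7 windows of both comparisons with day 0, and every dot of the edge against center panel marks a lower value at the edge.

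TGFB1 (ENSSSCG00025019487, contig LUXX01014741.1, positions 151393 to 168308, minus strand) encodes the isoform that platelets and macrophages are known to release in wounds. Its level in day 0 skin ran from 26.6 to 38.6 CPM with a median of 30.0 CPM. In the center the median was 163 CPM (111 to 209) on days 1 and 2, reached 208 CPM (184 to 318) on days 11 and 13, and was 143.7 CPM (108 to 176) on days 19 and 21. Edge samples had medians of 97.8 CPM (81.6 to 126) on days 1 and 2, 145 CPM (110 to 164) on days 7 and 9 and 94.2 CPM (79.0 to 147) on days 19 and 21. Every wound value therefore lay above every day 0 value, at both locations and in all 7 windows.

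The log2 fold change of TGFB1 in the center was 2.19 (SE 0.16, adjusted p = 2.49e-07) on days 1 and 2 and 3.01 (SE 0.14, adjusted p = 4.95e-09) on days 11 and 13. At the edge the smallest was 1.55 (SE 0.17, adjusted p = 9.08e-05) on days 15 and 16 and the largest 2.20 (SE 0.10, adjusted p = 6.47e-08) on days 7 and 9. The center level did not differ by the test between days 1 and 2 and days 5 and 6 (0.17, SE 0.15, adjusted p = 0.404). It was 0.62 higher on days 11 and 13 than on days 5 and 6 (SE 0.13, adjusted p = 0.00287) and fell by 0.62 to days 19 and 21 (SE 0.15, adjusted p = 0.00963).

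Beside the TGFB1 levels, the summed level of 9 neutrophil and monocyte markers moved from a median of 189.8 CPM in day 0 skin to 924.8 to 1980 CPM in the center and 302.9 to 2859 CPM at the edge. Of 63 gene tests of these markers, 63 were higher in the center than on day 0, and 61 at the edge. The 5 platelet markers had summed medians of 60 to 77 CPM in the 15 groups. Of 23 gene tests of them in the center, 14 were higher than day 0 and 6 lower. At the edge 8 of 17 were higher and 6 lower. Among the 5 markers, ITGA2B held 642 to 1712 counts per sample, while PF4 reached at most 58 counts, GP1BA 27, GP9 171 and PPBP 709. PF4 was at 0 in 28 samples, PPBP in 15 and GP1BA in 66. The part of these cells in the TGFB1 result was not tested.

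TGFB2 (ENSSSCG00025014174, contig LUXX01022546.1, positions 792084 to 892428, minus strand), the isoform without the integrin-binding motif in its latency peptide, first fell and later rose. Its day 0 level was 23.2 to 40.9 CPM with a median of 30.3 CPM. On days 1 and 2 the center median was 16.6 CPM (8.39 to 36.1) and the edge median 18.6 CPM (11.98 to 23.7), with ranges that overlapped day 0. On days 7 and 9 the center median was 93.6 CPM (64.9 to 101), above every day 0 value, and the edge median 41.5 CPM (30.8 to 78.2). In the center the values summed per animal lay apart from those of day 0 on days 5 and 6, 7 and 9, and 11 and 13. At the edge they overlapped in every window. The lowest single center biopsies overlapped day 0 on day 5 (22.6 CPM) and day 11 (24.5 CPM).

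The early fall of TGFB2 was -0.94 (SE 0.32, adjusted p = 0.0208) in the center and -0.85 (SE 0.18, adjusted p = 0.00171) at the edge. The center call was lost without animal 1, 3 or 5 (adjusted p = 0.0503, 0.0526 and 0.0926) and with each wound taken on its own (-0.81, adjusted p = 0.0686). The largest rise in the center was 1.61 (SE 0.16, adjusted p = 1.08e-06) on days 7 and 9, and the last called one, 0.87 (SE 0.30, adjusted p = 0.0225) on days 15 and 16, was lost without animal 3 or 6 (adjusted p = 0.0643 and 0.0813).

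At the edge TGFB2 rose by 0.52, 0.62 and 0.47 on days 5 and 6, 7 and 9, and 11 and 13 (adjusted p = 0.0321, 0.0284 and 0.0307) and by 0.78 (SE 0.18, adjusted p = 0.00434) on days 19 and 21. The first 3 of these were lost when single animals were left out. That of days 5 and 6 was lost without animal 2, 4 or 6 (adjusted p = 0.110, 0.0709 and 0.0841) and without the libraries that lie apart (0.38, adjusted p = 0.220). That of days 7 and 9 was lost without animal 1, 2 or 3 (adjusted p = 0.0578, 0.0907 and 0.0732) and with the animal as a block (0.58, adjusted p = 0.0666), and that of days 11 and 13 without animal 2, 3 or 4 (adjusted p = 0.115, 0.0846 and 0.0589). Without the libraries that lie apart both were lost as well (0.56, adjusted p = 0.0529, and 0.40, adjusted p = 0.0587).

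TGFB2 in the center was 2.26 higher on days 5 and 6 than on days 1 and 2 (SE 0.38, adjusted p = 0.000751), and the 6 animals of the later window all lay above those of the earlier. It was lower by 1.02 on days 19 and 21 than on days 11 and 13 (-1.02, SE 0.22, adjusted p = 0.00517), with 6 of 6 animals lower. At the edge the early step was 1.40 (SE 0.20, adjusted p = 0.000587).

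TGFB3 (ENSSSCG00025073263, contig LUXX01077104.1, positions 2674751 to 2703011, plus strand), the isoform known from studies of scar reduction, passed as higher from days 3 and 4 on at both locations. Day 0 skin held 14.7 to 28.02 CPM with a median of 16.8 CPM. The center median was 34.0 CPM (19.5 to 42.0) on days 1 and 2, 63.9 CPM (55.8 to 81.2) on days 11 and 13, 72.9 CPM (52.7 to 103) on days 15 and 16 and 65.2 CPM (54.0 to 80.1) on days 19 and 21. The edge median was 24.1 CPM (19.4 to 28.9) on days 1 and 2 and 69.7 CPM (37.5 to 96.5) on days 19 and 21. No wound value summed per animal overlapped day 0 from days 5 and 6 in the center and from days 3 and 4 at the edge. The lowest single edge biopsies of day 3 (26.6 CPM) and day 4 (27.3 CPM) overlapped day 0.

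On days 1 and 2 the log2 fold change of TGFB3 in the center was 0.51 (SE 0.24, adjusted p = 0.0755), and it passed with the animal as a block (0.52, adjusted p = 0.0415), library totals (0.74, adjusted p = 0.0091), DESeq2 (0.55, adjusted p = 0.0396) and each wound on its own (0.58, adjusted p = 0.0275). It was 0.69 (SE 0.22, adjusted p = 0.0146) on days 3 and 4, a call lost without animal 1 or 6 (adjusted p = 0.057 and 0.0688), and 2.03 (SE 0.22, adjusted p = 6.52e-06) on days 15 and 16. At the edge it was 0.18 (SE 0.19, adjusted p = 0.457) on days 1 and 2, 0.91 (SE 0.22, adjusted p = 0.00319) on days 3 and 4 and 2.01 (SE 0.26, adjusted p = 6.67e-05) on days 19 and 21. Edge samples gained 1.20 from days 1 and 2 to days 5 and 6 (SE 0.13, adjusted p = 0.000112).

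Divided by gene length, the counts of the 3 TGF-beta genes give each isoform's share of their sum (CPM per kilobase). In day 0 skin the median share was 41.4% for TGFB1 (30.4 to 53.5), 36.3% for TGFB2 (28.3 to 41.0) and 22.3% for TGFB3 (18.2 to 28.7). In the center on days 1 and 2 TGFB1 made up 79.6% (65.0 to 86.5) and TGFB2 7.42% (3.04 to 18.6), neither overlapping the day 0 shares. The highest TGFB2 share of an animal in the center was 29.7% on days 3 and 4 and 32.7% on days 5 and 6, which overlapped day 0. The median TGFB2 share reached 23.9% (18.3 to 27.5) in the center on days 7 and 9, below every day 0 share, and was 12.8% (8.03 to 16.0) on days 19 and 21. The TGFB3 share on days 19 and 21 was 25.9% (19.0 to 31.3) in the center and 31.2% (16.2 to 42.9) at the edge, where TGFB1 made up 48.3% (41.1 to 64.3).

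**Figure D3:**
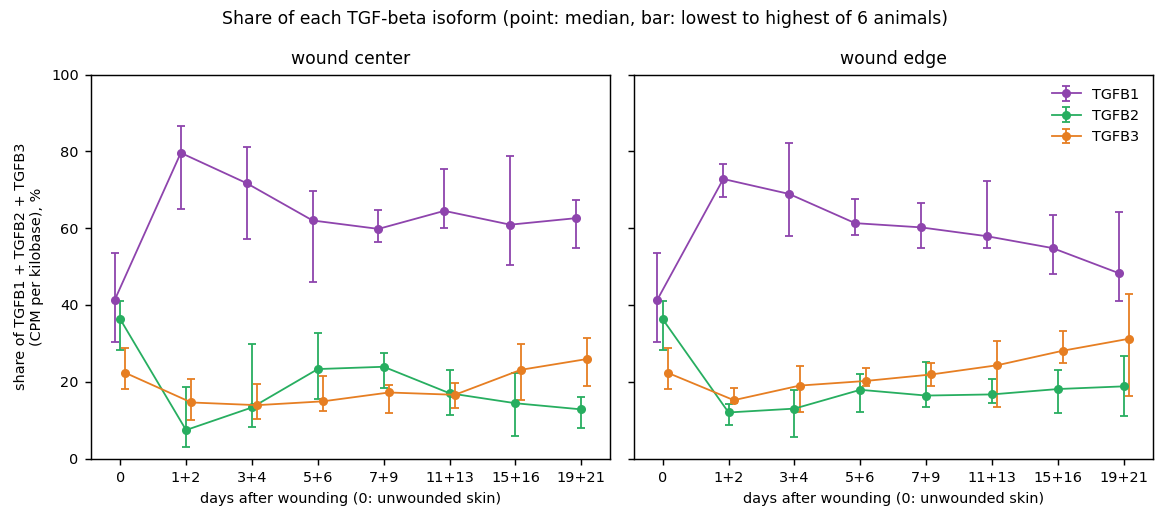
Share of TGFB1, TGFB2 and TGFB3 in their summed CPM per kilobase, in percent, for day 0 skin and the 7 windows in center and edge. Points are medians of 6 animals and bars run from the lowest to the highest animal. TGFB1 goes from a median of 41.4% in day 0 skin to 79.6% in the center and 72.8% at the edge on days 1 and 2, and TGFB2 from 36.3% to 7.42% in the center.

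INHBA encodes the beta A subunit, a pair of which forms activin A, a ligand known to be induced by skin injury. Its level in day 0 skin was 2.04 to 3.84 CPM with a median of 3.58 CPM, the lowest per length of the 9 genes. The center median was 21.9 CPM (13.6 to 44.6) on days 1 and 2, 106 CPM (48.0 to 172) on days 3 and 4 and 168 CPM (113 to 226) on days 5 and 6. It reached 203 CPM (78.4 to 293) on days 7 and 9 and was 51.3 CPM (40.8 to 77.9) on days 19 and 21. Edge medians were 11.2 CPM (8.90 to 19.6) on days 1 and 2, 77.4 CPM (50.1 to 100.2) on days 5 and 6, 20.5 CPM (8.67 to 30.0) on days 15 and 16 and 47.6 CPM (29.1 to 62.1) on days 19 and 21. All wound values summed per animal lay above all day 0 values at both locations and in all 7 windows. Among single biopsies the lowest of day 2 overlapped day 0, at 2.67 CPM at the edge and 3.39 CPM in the center.

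The log2 fold change of INHBA in the center was 2.76 (SE 0.32, adjusted p = 8.53e-06) on days 1 and 2 and 5.83 (SE 0.35, adjusted p = 9.23e-09) on days 7 and 9, and 4.25 (SE 0.23, adjusted p = 2.18e-08) on days 19 and 21. At the edge it was 1.81 (SE 0.22, adjusted p = 2.8e-05) on days 1 and 2 and 4.47 (SE 0.22, adjusted p = 1.23e-08) on days 5 and 6. From days 1 and 2 to days 5 and 6 INHBA rose by 2.86 in the center (SE 0.32, adjusted p = 6.05e-05) and by 2.70 at the edge (SE 0.23, adjusted p = 2.64e-05). In the center it then fell by 1.06 from days 11 and 13 to days 19 and 21 (SE 0.21, adjusted p = 0.00345). The edge value of -0.70 from days 5 and 6 to days 11 and 13 (SE 0.25, adjusted p = 0.0463) was lost without animal 1, 2, 3, 4 or 6 (adjusted p from 0.0645 to 0.139) and without the libraries that lie apart (-0.54, adjusted p = 0.336).

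LTBP1 (ENSSSCG00025045768, contig LUXX01023770.1, positions 929198 to 1348936, plus strand), which tethers latent TGF-beta to the matrix, passed the test against day 0 in 2 of 14 comparisons. Day 0 skin held 135 to 171 CPM with a median of 149 CPM, and the medians of the wound groups lay between 119 and 192 CPM. In the center no window passed the test, with log2 fold changes from -0.16 to 0.27. With library totals in place of TMM the center value was called on days 1 and 2 (0.37, adjusted p = 0.0104), days 5 and 6 (0.24, adjusted p = 0.0232) and days 19 and 21 (-0.34, adjusted p = 0.00469), and the edge value on days 15 and 16 (-0.30, adjusted p = 0.0384) and days 19 and 21 (-0.36, adjusted p = 0.00611). In CPM, the 6 animals of days 19 and 21 lay below all day 0 values in the center (112 to 129 CPM) and at the edge (99.0 to 125 CPM). Edge samples rose by 0.25 on days 3 and 4 (SE 0.10, adjusted p = 0.0476) and by 0.33 on days 5 and 6 (SE 0.11, adjusted p = 0.0156). The earlier call was lost without animal 1, 2, 3, 4 or 6 (adjusted p from 0.0761 to 0.169) and without the libraries that lie apart (0.23, adjusted p = 0.065), and the later one without animal 6 (adjusted p = 0.0605) and without the libraries that lie apart (0.27, adjusted p = 0.0548).

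TGFBR2 (ENSSSCG00025024102, contig LUXX01035361.1, positions 2848190 to 2942202, minus strand), the receptor that binds TGF-beta first, rose in all 7 center windows. Day 0 skin held 141 to 189.7 CPM with a median of 153 CPM. In the center the medians lay between 259.5 CPM on days 19 and 21 (227 to 292) and 380.1 CPM on days 11 and 13 (299 to 412), and no center value overlapped day 0. At the edge the median was 196 CPM (141 to 214) on days 1 and 2, 259 CPM (238 to 304) on days 3 and 4 and 196 CPM (181 to 230) on days 19 and 21. Edge values summed per animal lay apart from day 0 on days 3 and 4, 5 and 6, and 7 and 9, and overlapped it in the other 4 windows. The lowest single edge biopsy of day 9, at 169 CPM, overlapped day 0.

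The log2 fold change of TGFBR2 in the center ran from 0.90 (SE 0.11, adjusted p = 1.82e-05) on days 19 and 21 to 1.32 (SE 0.10, adjusted p = 2.31e-07) on days 11 and 13. At the edge it was 0.21 (SE 0.11, adjusted p = 0.138) on days 1 and 2 and 0.73 (SE 0.10, adjusted p = 3.79e-05) on days 5 and 6, and the weakest called value, 0.42 (SE 0.11, adjusted p = 0.012) on days 15 and 16, was lost without animal 6 (0.34, adjusted p = 0.0503). Edge samples gained 0.56 from days 1 and 2 to days 5 and 6 (SE 0.11, adjusted p = 0.00362). The center value dropped by 0.44 from days 11 and 13 to days 19 and 21 (SE 0.10, adjusted p = 0.00686), a call lost without animal 3 or 6 (adjusted p = 0.0523 and 0.0514).

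Beside TGFBR2, 6 endothelial markers summed to a median of 415.3 CPM in day 0 skin, 809.8 to 1556 CPM in the center and 566.2 to 960.9 CPM at the edge, and 41 of 42 gene tests of these markers were higher in the center than on day 0. Their part in the TGFBR2 result was not tested.

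TGFBR1 (ENSSSCG00025075618, contig LUXX01048769.1, positions 1990527 to 2049004, plus strand), the type I kinase that phosphorylates the SMADs, passed as higher than day 0 in 3 of 14 comparisons, all from days 11 and 13 on. Its day 0 level was 107 to 138 CPM with a median of 130.2 CPM, and wound medians lay between 111 and 168 CPM. On days 1 and 2 the center value was 0.14 (SE 0.10, adjusted p = 0.243), and 0.37 (adjusted p = 0.00633) with library totals. A rise passed the test in the center on days 11 and 13 (0.31, SE 0.10, adjusted p = 0.0183) and on days 19 and 21 (0.63, SE 0.12, adjusted p = 0.000608), and at the edge on days 19 and 21 (0.49, SE 0.14, adjusted p = 0.0126). The call of days 11 and 13 was lost without animal 2, 3 or 6 (adjusted p = 0.0534, 0.0749 and 0.0508), with library totals (0.23, adjusted p = 0.0548) and without the libraries that lie apart (0.25, adjusted p = 0.0548). So was the edge call without animal 3 (adjusted p = 0.0605) and with library totals (0.28, adjusted p = 0.0837). In the center TGFBR1 was lower by 0.29 on days 5 and 6 than on days 1 and 2 (-0.29, SE 0.09, adjusted p = 0.0194), which was lost without animal 2 or 5 (adjusted p = 0.0855 and 0.0691), and 0.42 higher on days 11 and 13 than on days 5 and 6 (SE 0.09, adjusted p = 0.00372).

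SMAD7 (ENSSSCG00025004341, contig LUXX01002987.1, positions 480921 to 510395, plus strand), which blocks the receptors and is itself a target of the pathway, was near its day 0 level or below it. Day 0 skin spread widely, from 11.7 to 33.3 CPM with a median of 23.1 CPM, and wound medians lay between 14.2 and 23.1 CPM. The fitted log2 fold change against day 0 was negative in all 14 comparisons, from -0.65 to -0.15. A fall passed the test in the center on days 3 and 4 (-0.57, SE 0.23, adjusted p = 0.0438) and at the edge on days 1 and 2 (-0.65, SE 0.21, adjusted p = 0.0212). The center call was lost with the animal as a block (-0.52, adjusted p = 0.114) and without animal 1, 3, 4, 5 or 6 (adjusted p from 0.0704 to 0.168), and the edge call without animal 1, 3 or 6 (adjusted p = 0.0506, 0.0689 and 0.0591).

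Leaving out animal 2, whose day 0 sample lies apart, gave SMAD7 more calls. Without that animal the value on days 5 and 6 was -0.60 in the center (adjusted p = 0.00771) and -0.57 at the edge (adjusted p = 0.0183), against -0.46 (SE 0.21, adjusted p = 0.0678) and -0.47 (SE 0.22, adjusted p = 0.0803) with all animals. Without all 8 libraries that lie apart the same values were -0.61 (adjusted p = 0.00293) and -0.64 (adjusted p = 0.00679). In that setting SMAD7 also passed as lower than day 0 in the center on days 7 and 9 (-0.58, adjusted p = 0.00812). At the edge it passed on days 3 and 4 (-0.53, adjusted p = 0.0347), 7 and 9 (-0.53, adjusted p = 0.0132) and 19 and 21 (-0.57, adjusted p = 0.018), and its edge value was higher on days 11 and 13 than on days 5 and 6 (0.36, adjusted p = 0.0457).

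TGFBI (ENSSSCG00025059130, contig LUXX01090843.1, positions 148062 to 181737, plus strand), which encodes a secreted matrix protein that binds collagen and integrins, was the most abundant of the 9 per length in all 15 groups. Day 0 skin held 191 to 343 CPM with a median of 224 CPM. The center median was 502 CPM (408 to 836) on days 1 and 2, 1238 CPM (1030 to 1575) on days 5 and 6, 2232 CPM (1276 to 4113) on days 15 and 16 and 2849 CPM (2149 to 3313) on days 19 and 21. Medians at the edge were 322 CPM (237 to 500.2) on days 1 and 2, 1916 CPM (1375 to 2574) on days 11 and 13, 983 CPM (519 to 1504) on days 15 and 16 and 1922 CPM (757 to 3272) on days 19 and 21. No center value summed per animal overlapped day 0 in any window, and no such edge value did from days 3 and 4. The lowest single center biopsy of day 1, at 250 CPM, overlapped day 0.

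The log2 fold change of TGFBI in the center went from 0.95 (SE 0.20, adjusted p = 0.00116) on days 1 and 2 to 3.70 (SE 0.20, adjusted p = 2.21e-08) on days 19 and 21. At the edge it was 0.40 (SE 0.21, adjusted p = 0.135) on days 1 and 2, or 0.38 (adjusted p = 0.0398) with the animal as a block, and 3.29 (SE 0.32, adjusted p = 8.29e-06) on days 19 and 21. The center gained 1.33 from days 1 and 2 to days 5 and 6 (SE 0.18, adjusted p = 0.000221) and 0.92 from days 11 and 13 to days 19 and 21 (SE 0.22, adjusted p = 0.00852). The edge gained 1.60 (SE 0.26, adjusted p = 0.00108) and then 1.19 (SE 0.24, adjusted p = 0.00211) up to days 11 and 13.

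Beside TGFBI and TGFB3, 8 fibroblast markers summed to a median of 57390 CPM in day 0 skin, 21290 CPM in the center on days 1 and 2 and 133700 CPM in the center on days 19 and 21, with 22710 and 160900 CPM at the edge in the same windows. Their part in the rise of these genes was not tested.

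Edge and center biopsies of the same wounds were compared next. By the test 6 of the 9 genes were lower at the edge on days 1 and 2 (25.4% of all genes), 0 on days 3 and 4 (7.56%), 2 on days 5 and 6 (17%), 4 on days 7 and 9 (18.4%), 5 on days 11 and 13 (21.3%), 6 on days 15 and 16 (20.2%) and 0 on days 19 and 21 (0%). None of the 9 was higher at the edge in any window, while 25%, 14.3%, 20%, 21.6%, 22.3%, 20.3% and 0% of all genes were. In the last window 0 genes of the whole table passed edgeR's test, 1139 had an unadjusted p under 0.05, and DESeq2 called 86. With the animal as a block 9 genes of the table passed in that window, and on days 3 and 4 3 of the 9 passed, all lower at the edge: TGFBR2 (-0.27, adjusted p = 0.0121), INHBA (-0.97, adjusted p = 0.00968) and TGFBI (-0.55, adjusted p = 0.0167). Without the libraries that lie apart TGFBR2 (-0.39, adjusted p = 0.00307) and INHBA (-0.97, adjusted p = 0.0397) passed there too. The center library of wound G of animal 2 on day 3 is among those left out. In that wound edge minus center in log2(1+CPM) ran only from -0.102 for TGFBR2 to 0.152 for TGFB2 over the 9 genes.

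In the sums over all days, 4 of the 9 genes were lower at the edge (26% of all genes) and 0 were higher (26.1%). INHBA differed by -1.32 (SE 0.12, adjusted p = 2.04e-06), TGFB2 by -0.64 (SE 0.13, adjusted p = 0.00104), TGFB1 by -0.54 (SE 0.08, adjusted p = 0.000177) and TGFBR2 by -0.49 (SE 0.05, adjusted p = 4.38e-06). TGFBI differed by -0.19 (SE 0.16, adjusted p = 0.319), and by -0.20 (adjusted p = 0.0301) with the animal as a block. The values of TGFB3, TGFBR1, LTBP1 and SMAD7 lay between -0.11 and 0.05 and did not pass the test.

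Wound by wound, INHBA was lower at the edge in 66 of 72 wounds, TGFBR2 in 65, TGFB1 in 62 and TGFB2 in 51. The difference of edge minus center in log2(1+CPM), averaged within each animal and then over the 6 animals, was -1.305 ± 0.239 (SD, n = 6) for INHBA, -0.587 ± 0.11 for TGFB1, -0.534 ± 0.064 for TGFBR2 and -0.464 ± 0.216 for TGFB2, and it was negative in 6 of 6 animals for each. The day mean was lower at the edge on 14 of 14 days for INHBA, TGFB1 and TGFBR2 and on 10 of 14 for TGFB2. LTBP1 was lower in 32 of 72 wounds, with a mean of 0.045 ± 0.113 (SD, n = 6).

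The difference in INHBA passed the test in 5 of 7 windows. Its median over wounds was -0.15 for day 1, -0.91 for day 2 and -0.48 for day 3. It was -1.14 for day 4, -1.89 for day 7, -2.51 for day 15 and -2.02 for day 16, and then -0.02 for day 19 and 0.20 for day 21. By the window test it was -1.05 (SE 0.31, adjusted p = 0.0135) on days 1 and 2, a call lost without animal 5 (-0.79, adjusted p = 0.0663) and without the libraries that lie apart (-0.92, adjusted p = 0.118). It was -0.99 (SE 0.35, adjusted p = 0.0647) on days 3 and 4, -2.16 (SE 0.40, adjusted p = 0.00156) on days 15 and 16 and -0.17 (SE 0.21, adjusted p = 0.917) on days 19 and 21. Edge and center animals did not overlap on days 5 and 6, 11 and 13, and 15 and 16.

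**Figure D4:**
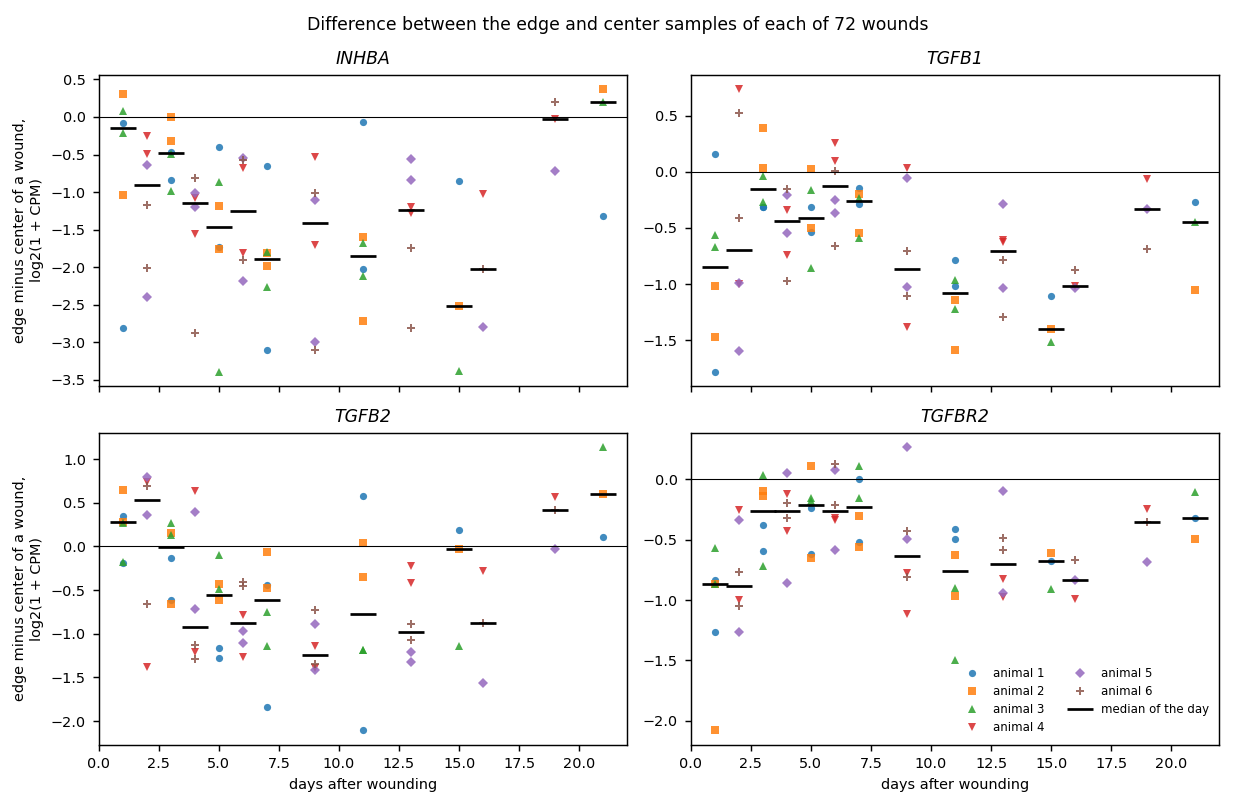
Edge minus center in log2(1+CPM) for each of the 72 wounds by day after wounding, for INHBA, TGFB1, TGFB2 and TGFBR2. Each point is 1 wound in the colour of its animal, the bar is the median of the day, and 0 means an equal level. Points of INHBA, TGFB1 and TGFBR2 lie mostly below 0, and the INHBA median of days 19 and 21 is near 0.

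TGFB1 was lower at the edge, at -0.66 (SE 0.16, adjusted p = 0.00452) on days 1 and 2 and at -1.15 (SE 0.18, adjusted p = 0.000633) on days 15 and 16, with no overlap on days 7 and 9, 11 and 13, and 15 and 16. On days 5 and 6 its value was -0.24 (SE 0.10, adjusted p = 0.0714), and with the animal as a block it passed (-0.24, adjusted p = 0.0418). TGFBR2 stood at -0.86 (SE 0.11, adjusted p = 5.6e-05) on days 1 and 2 and -0.80 (SE 0.11, adjusted p = 0.000281) on days 15 and 16, both without overlap, and at -0.26 (SE 0.10, adjusted p = 0.0529) on days 5 and 6, where the block again gave a call (-0.26, adjusted p = 0.0205).

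On days 1 and 2 the TGFB2 value was 0.01 (SE 0.32, adjusted p = 0.988), with an SE that leaves small differences undetected. It was lower at the edge, at -0.82 (SE 0.26, adjusted p = 0.023) on days 5 and 6, which was lost without animal 2 or 4 (adjusted p = 0.0551 and 0.0546), at -0.96 (SE 0.20, adjusted p = 0.00173) on days 7 and 9 and at -0.76 (SE 0.19, adjusted p = 0.00575) on days 11 and 13. The call of days 15 and 16 (-0.78, SE 0.29, adjusted p = 0.0496) was lost with the animal as a block (-0.65, adjusted p = 0.0755) and without animal 2, 3, 4, 5 or 6 (adjusted p from 0.0555 to 0.176). On days 19 and 21 the TGFB2 value had the other sign, 0.52 (SE 0.21, adjusted p = 0.565). It did not pass the test, and 5 of 6 animals were higher at the edge.

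By the test the other genes differed between edge and center in at most 2 of the 7 windows. TGFB3 was lower at the edge, at -0.33 (SE 0.11, adjusted p = 0.0284) on days 11 and 13 and at -0.62 (SE 0.20, adjusted p = 0.0294) on days 15 and 16. The former was lost with the block (-0.32, adjusted p = 0.0656) and without animal 3, 4 or 5 (adjusted p = 0.087, 0.0901 and 0.0789), and the latter without animal 2 or 3 (adjusted p = 0.0909 and 0.0956), while the block gave a call on days 1 and 2 (-0.39, adjusted p = 0.0333).

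TGFBI was lower at the edge, at -0.63 (SE 0.23, adjusted p = 0.0361) on days 1 and 2, lost without animal 1, 2, 5 or 6 (adjusted p = 0.078, 0.124, 0.0917 and 0.0556), and at -1.25 (SE 0.38, adjusted p = 0.0197) on days 15 and 16, lost without animal 2 or 5 (adjusted p = 0.0511 and 0.0734). With the block it also passed on days 5 and 6 (-0.38, adjusted p = 0.0282). SMAD7 (-0.48, SE 0.12, adjusted p = 0.00678) and TGFBR1 (-0.28, SE 0.08, adjusted p = 0.014) were lower at the edge on days 1 and 2 alone of the 7 windows, the TGFBR1 call being lost without animal 2 (adjusted p = 0.0531). LTBP1 passed in no window. With the block it was higher at the edge on days 11 and 13 (0.24, adjusted p = 0.0472), and on days 15 and 16 its value was -0.46 (SE 0.18, adjusted p = 0.0534). The latter passed as lower at the edge with DESeq2 (-0.45, adjusted p = 0.026), library totals (-0.43, adjusted p = 0.0483), all samples in one fit (-0.51, adjusted p = 0.00163) and without animal 1 (-0.59, adjusted p = 0.0262).

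Whether the difference between edge and center itself changed over the 7 windows was tested as an interaction of location and window in the 84 sums. The sums of 1 animal entered this test as separate values, without a term for the animal. The interaction passed for 6 of the 9 genes, against 34.3% of all genes tested. These were TGFBR2 (adjusted p = 0.000208), TGFB1 (adjusted p = 0.00549), INHBA (adjusted p = 0.00817), TGFBI (adjusted p = 0.00988), TGFB2 (adjusted p = 0.0271) and LTBP1 (adjusted p = 0.0273). TGFB3 stood at an adjusted p of 0.0569, and passed with the animal as a block (0.0121), library totals (0.0386) and DESeq2 (0.0371). SMAD7 stood at 0.108 and TGFBR1 at 0.233. The TGFB2 call was lost without animal 1, 3, 5 or 6 (adjusted p from 0.0521 to 0.171) and the INHBA call without animal 2 or 3 (adjusted p = 0.0865 and 0.0909) and with each wound taken on its own (adjusted p = 0.0804). The LTBP1 call was lost without animal 2, 3 or 6 (adjusted p from 0.0569 to 0.151), with library totals (adjusted p = 0.0697), with no filter (adjusted p = 0.0666) and with each wound on its own (adjusted p = 0.114), a setting in which SMAD7 passed (adjusted p = 0.0103). The TGFBI call was lost without animal 2 or 5 (adjusted p = 0.0974 and 0.0944).

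Markers of cell types moved with location. Of 63 gene tests of keratinocyte markers over the 7 windows, 39 were higher at the edge and 0 lower. Of 42 tests of endothelial markers 32 were lower at the edge, of 63 tests of neutrophil and monocyte markers 30 were lower and 7 higher, and of 56 tests of fibroblast markers 26 were lower. Their part in the lower levels of INHBA, TGFB1, TGFB2 and TGFBR2 was not tested. On days 19 and 21, where no gene passed, the keratinocyte sums were 38870 CPM in the center and 39720 CPM at the edge.

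Between windows of 1 location, the early step in the center held 4 rises (19.3% of all genes) and 1 fall (17.1%) among the 9 genes. From days 5 and 6 to days 11 and 13 the center had 5 rises (18.6%) and 1 fall (18.3%), and from there to days 19 and 21 it had 2 rises (13.5%) and 4 falls (14.4%). Edge samples had 6 rises (13.4%) and 0 falls (11%) in the early step, 1 rise (15.5%) and 2 falls (17%) in the middle one, and none in either direction in the last (0.293% and 0.1%). The last edge step had few calls over all genes, 59 by edgeR and 937 by DESeq2, with 3006 genes at an unadjusted p under 0.05.

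Several of the later calls among the less changed genes were lost when single animals were left out. In the center from days 5 and 6 to days 11 and 13, TGFB3 (0.53, adjusted p = 0.0257), TGFBR2 (0.31, adjusted p = 0.0224), LTBP1 (-0.33, adjusted p = 0.0301) and SMAD7 (0.24, adjusted p = 0.0481) passed with all animals. The ranges of the lost adjusted p were 0.0591 to 0.0768 for TGFB3 (animals 1, 2, 3, 5 and 6), 0.0556 to 0.0887 for TGFBR2 (animals 2, 3, 5 and 6), 0.0576 to 0.114 for LTBP1 (animals 1 to 5) and 0.0955 to 0.147 for SMAD7 (animals 1, 2, 3, 5 and 6). SMAD7 was also lost with the animal as a block (0.24, adjusted p = 0.0798). The early center step of TGFB3 (0.72, adjusted p = 0.0232) was lost without animal 2, 4 or 5 (adjusted p = 0.0623, 0.0696 and 0.0632). The late step of TGFBR1 (0.30, adjusted p = 0.049) was lost without animal 1, 2, 4, 5 or 6 (adjusted p from 0.0577 to 0.108), and the LTBP1 fall at the edge (-0.26, adjusted p = 0.0404) without any 1 of the 6 animals (adjusted p from 0.0502 to 0.137) and without the libraries that lie apart (-0.25, adjusted p = 0.0634).

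Day by day over the 29 states, the genes did not all have their highest mean in the same state. The order of the states was not tested, and each day after wounding holds only 1 of the 2 sets of animals. TGFB1 had its highest mean in the center on day 11 (7.86 ± 0.39 in log2(1+CPM), SD) and its lowest on day 0 (4.97 ± 0.18). The next lowest was the edge on day 15 (6.31). INHBA ran from 2.10 ± 0.25 on day 0 to 7.71 ± 0.18 in the center on day 7, and the state nearest to day 0 was the edge on day 2 (3.37). TGFB2 was highest in the center on day 6 (6.57 ± 0.51) and lowest in the center on day 1 (3.80 ± 0.54), with day 0 at rank 22 of the 29 states. The highest means were those of the day 16 center for TGFB3 (6.24 ± 0.41), the day 13 center for TGFBR2 (8.53 ± 0.25) and the day 19 center for TGFBI (11.47 ± 0.35).

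LTBP1 was highest at the edge on day 5 (7.67 ± 0.20) and lowest at the edge on day 16 (6.85 ± 0.12). TGFBR1 and SMAD7 both had their highest mean in the center on day 1, at 7.47 ± 0.17 and 4.62 ± 0.27, and day 0 was at rank 2 for SMAD7 and at rank 24 for TGFBR1. Neighbours in these orders mostly did not differ beyond their spread: of the 28 neighbouring pairs, 26 for INHBA, 27 each for TGFB1, TGFB2, TGFB3 and TGFBI, and 28 each for TGFBR1, TGFBR2, LTBP1 and SMAD7 lay within the larger of their SDs.

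Per length (CPM per kilobase), TGFBI ranked above the other genes in every group, with a median of 43.2 in day 0 skin and 549 in the center on days 19 and 21. INHBA went from rank 9 on day 0, with a median of 0.679, to rank 4 in the center on days 5 and 6 (31.9) and on days 7 and 9 (38.5). LTBP1 was at rank 2 on day 0 (24.1) and at rank 4 in the center on days 1 and 2 (31.2), where TGFBR2 was at rank 2 (53.8) and TGFB1 at rank 3 (51.5).

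Genes whose state means followed a member most closely were sought among 13509 genes with a symbol, by Pearson r over the 29 states. For INHBA they were CKAP4 (0.970), PDIA5 (0.965) and RUNX2 (0.962), and for TGFB1 FXYD5 (0.980), PPP1R18 (0.974) and ADAP2 (0.953). TGFB2 was followed by WNT5A (0.909), B3GLCT (0.904) and CCN4 (0.904), and TGFB3 by MEX3B (0.936), MFRP (0.929) and ITGA11 (0.920). TGFBR2 went with TACC1 (0.955), TRIM8 (0.955) and NOTCH4 (0.947), and TGFBI with FKBP9 (0.950), DCHS1 (0.946) and SCARF2 (0.936). The closest genes were less alike for LTBP1 (CD151 0.874, EIF4G1 0.853, STC1 0.843), TGFBR1 (B3GALNT1 0.728, EIF4E3 0.714, P2RY12 0.691) and SMAD7 (TNK2 0.679, ATG13 0.675, SNAPIN 0.673).

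Among the 9 genes themselves the highest r over the states was 0.900 for TGFBI and TGFB3, followed by TGFBR2 and TGFB1 (0.860), INHBA and TGFB1 (0.804) and INHBA and TGFB2 (0.755). The lowest was -0.461, for LTBP1 with TGFB3 and for LTBP1 with TGFBI. The states share the 6 animals, and edge and center states share wounds, so these values describe the time course only.

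The rest of the pathway was described from 47 further genes in 6 lists by role, of which 46 had a row. Their counts of calls are to be read beside the share of all genes called in the same windows, which was 25.2% to 37% higher and 24.4% to 34.8% lower in the center, and 16% to 31.8% higher and 13.4% to 30.1% lower at the edge. INHA, MSTN, NODAL and COMP never passed the filter on low counts in a comparison with day 0. Among the other ligands, GDF11, which signals through activin receptors, rose in the center by 1.86 to 2.63 in all 7 windows, and at the edge by 1.45 to 2.21 in 6, the value of days 1 and 2 being 0.06 (adjusted p = 0.908). INHBB, the beta B subunit of activin and inhibin, fell in the center by 1.01 on days 1 and 2 (SE 0.18, adjusted p = 0.000327) and was higher than day 0 by 1.11 on days 15 and 16 (SE 0.19, adjusted p = 0.000317). LEFTY2, an inhibitory relative of TGF-beta with 2 rows under its symbol, summed to 5 counts in day 0 skin, where 5 of 6 animals held 0, and to 220 counts in the center and 283 at the edge on days 11 and 13. No fold change is given for it, since it would rest on those day 0 counts. In the center 13 of 17 gene tests of the list were higher than day 0 and 3 lower, and at the edge 8 of 16 were higher and 4 lower. These counts include 5 tests of LEFTY2, all called, which rest on the same day 0 counts.

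The latency list (latent binding proteins, carriers, releasing integrins and proteases) had 42 of 77 gene tests higher and 27 lower in the center, and 41 higher and 22 lower at the edge. NRROS and LRRC32 encode membrane carriers of latent TGF-beta on myeloid cells and on regulatory T cells and endothelium. NRROS rose by 1.76 to 3.03 in the center and by 1.36 to 2.22 at the edge, and LRRC32 by 1.19 to 1.56 and by 0.42 to 1.16, in all 14 comparisons. LTBP4, a binding protein with a role in elastic fibers, was lower in all 14, at -2.32 to -0.97 in the center and -2.01 to -0.93 at the edge. The list's median log2 fold change in the center went from -0.13 on days 1 and 2 to 1.21 on days 15 and 16, beside medians of all genes near 0.

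Of 56 tests of other receptors, 20 were higher and 25 lower in the center, and 17 higher and 20 lower at the edge. ENG and ACVRL1, a co-receptor and a type I receptor known from endothelial cells, were higher than day 0 in all 14 comparisons, by 1.15 to 2.94 and by 0.84 to 2.50. ACVR2A, a type II receptor for activins, was lower in all 14, at -1.43 to -0.90. Among SMADs and the ubiquitin ligases that act on them, 28 of 42 tests were higher and 6 lower in the center, and 15 higher and 1 lower at the edge. SMAD3 rose by 0.55 to 0.93 and SMAD4 by 0.20 to 0.53 in all 7 center windows. SMURF1, a ligase that SMAD7 brings to the receptor, rose in 6 of 7 center windows, by 0.37 to 1.03.

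The inhibitor list had 26 of 63 tests higher and 24 lower in the center, and 19 higher and 26 lower at the edge. BAMBI, a receptor-like gene without a kinase, was lower than day 0 in all 14 comparisons, at -3.91 to -1.99. The genes for 2 proteins that bind activin went opposite ways: FST was lower in all 7 center windows, at -2.93 to -1.54, and FSTL3 was higher in all 7, by 1.18 to 2.22. In the sums over all days FST was higher at the edge than in the center (1.13, SE 0.14, adjusted p = 3.43e-05) and FSTL3 lower (-0.75, SE 0.09, adjusted p = 3.25e-05), so that FSTL3 and INHBA were low at the same location.

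The target list, genes often used as readouts of TGF-beta, had 17 of 35 tests higher and 11 lower in the center, and 8 higher and 13 lower at the edge. LOXL2, a collagen cross-linking enzyme, rose in all 7 center windows, from 1.41 on days 1 and 2 (SE 0.24, adjusted p = 0.000189) to 4.16 on days 15 and 16 (SE 0.24, adjusted p = 6.66e-08). POSTN, a matrix protein of the same family as TGFBI, went the other way early: its center value was -3.88 (SE 0.48, adjusted p = 9.03e-06) on days 5 and 6 and 0.63 (SE 0.23, adjusted p = 0.0358) on days 19 and 21. In the sums over all days POSTN was higher at the edge (1.42, SE 0.11, adjusted p = 7.01e-07), whereas TGFBI did not pass the test there. CCN2, a matricellular growth factor gene, was lower than day 0 in the center on days 1 and 2 (-0.85, SE 0.25, adjusted p = 0.00891) and higher by 1.21 to 1.43 from days 7 and 9 on. At the edge CCN2 passed as higher in 1 window, days 19 and 21 (1.14, SE 0.29, adjusted p = 0.00786).

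Between edge and center over all days, 26% of all genes tested were lower at the edge and 26.1% higher. Of the lists, 2 of 5 ligand genes tested were lower and 0 higher, 6 of 11 latency genes lower and 3 higher, and 3 of 8 receptors lower and 1 higher. For the others it was 5 of 6 SMAD genes lower and 1 higher, 5 of 9 inhibitors lower and 3 higher, and 4 of 6 targets lower and 1 higher. ENG (-0.90, SE 0.05, adjusted p = 9.72e-08) and ACVRL1 (-0.88, SE 0.04, adjusted p = 4.78e-08) had the smallest adjusted p among the genes named from the lists. In the same sums 6 of 6 endothelial markers were lower at the edge, and their part in these values was not tested.

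**Figure D5:**
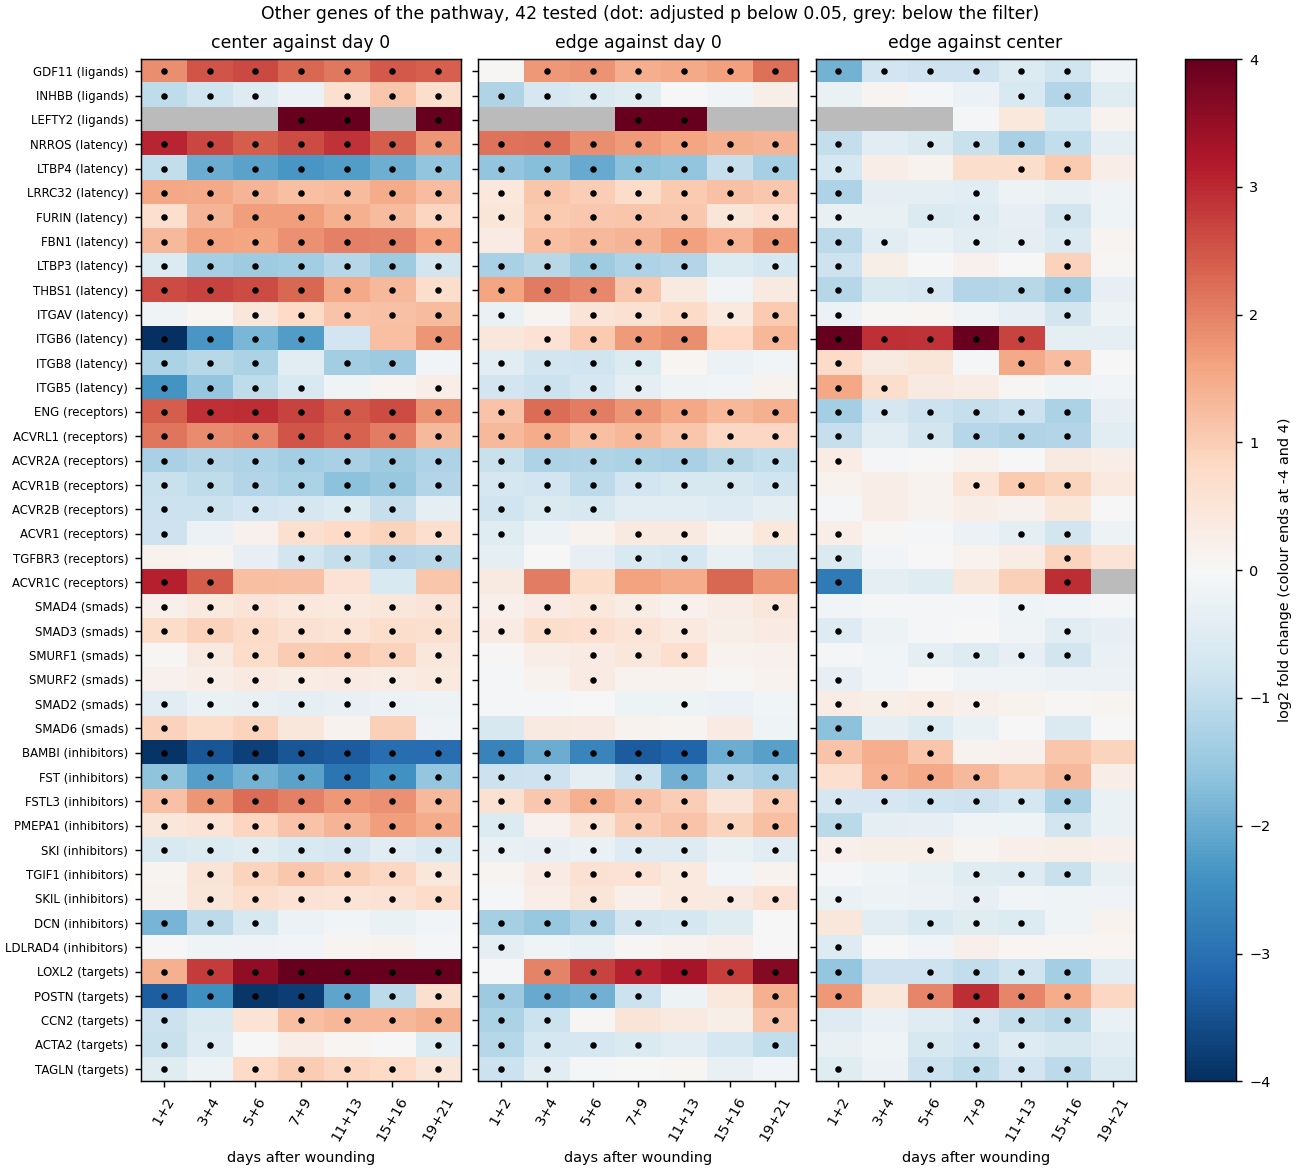
Log2 fold change of the 42 other pathway genes that could be tested, by list, in the 7 windows of center against day 0, edge against day 0 and edge against center. Colour ends at 4 in either direction, a dot marks an adjusted p under 0.05, and grey marks a gene not tested in that window. BAMBI, LTBP4 and ACVR2A are lower and NRROS, LRRC32, ENG and ACVRL1 higher than day 0 across all 7 windows at both locations.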

How the data were processed

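Poly-A RNA libraries of 150 porcine samples were sequenced by a service provider (paired reads), which dropped adapter, poly-N and low-quality reads before alignment to a reference genome and counting per gene. The aligner, counter and build are not given in the sources used here. The deposited values are raw counts per gene, and a second deposited table holds FPKM made by the authors from the same libraries, used here only as another scale. Contigs and positions are those of the deposited gene columns.

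Symbols were the gene name or, where none was given, the protein match of the description. Of several rows with 1 symbol the row with the largest mean count was taken. The genes and lists were chosen with earlier results of these data known. All 10 genes were to be described. Of each further list up to 3 genes were named, those called in most of the 14 comparisons with day 0, ties by mean absolute log2 fold change, and for each gene the 3 of most similar pattern. 1 gene of the target list is not reported here. Only the 2 groups compared entered a fit, in edgeR 4.0.16 (R 4.3.3) with TMM scaling, the filterByExpr filter (at least 10 counts, and 15 in total), its quasi-likelihood test and Benjamini-Hochberg adjustment over all genes tested, with a threshold of 0.05. Levels are CPM of library totals, as log2(1+CPM) in figures and wound differences. The fits were run on simulated counts, drawn without correlation between the sums of 1 animal. Those runs therefore cannot show how the fits behave with shared animals. Python 3.11.15, pandas 2.3.3, numpy 2.4.6 and matplotlib 3.10.9 served for the rest.

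Groups that were compared hold the same 6 animals. The deviations of 1 animal from its group means had a mean r of 0.316 between groups, above 0.1 in 39 of 42 pairs, and the fit with the animal as a block was an alternative. The others were relative log expression factors, library totals, DESeq2 1.42.0, no filter, each wound on its own, all 150 samples in one fit and each animal left out in turn. Leaving out the 8 libraries that lie apart was chosen after seeing the data. In the main comparisons of groups, p-values measure the spread between the 6 animals. In wound groups that spread also holds differences between the days on which the animals were sampled. In the interaction test the sums of 1 animal entered as separate values, so its p-values do not measure the spread between animals alone.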

Additional observations from a re-analysis of the deposited data

Results flagged for a closer look

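In groups of 6 samples, the gap of the highest or lowest sample to the nearest of the others was set against the range of the group, for 189 groups of 1 gene in 1 state. The ratio was beyond the critical value in 11 of them, where chance gives about 1 in 20, or 9.45. Levels are log2(1+CPM).

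In day 0 skin, TGFBR2 of replicate 5 (7.575 against 7.153 to 7.287, ratio 0.682) was high and INHBA of replicate 6 (1.602 against 2.087 to 2.274, ratio 0.722) was low. High samples in wounds were TGFBI of day 2 edge replicate 2 (9.219 against 8.553 to 8.703, ratio 0.775), TGFBR2 of day 6 center replicate 1 (8.83 against 8.13 to 8.322, ratio 0.726), TGFB3 of day 6 edge replicate 1 (6.607 against 5.449 to 5.774, ratio 0.719), and, in the same library of day 9 center replicate 3, INHBA (8.992 against 5.886 to 7.003, ratio 0.64) and SMAD7 (4.598 against 3.863 to 4.094, ratio 0.686). Low samples were TGFB1 of day 6 edge replicate 5 (6.244 against 7.011 to 7.364, ratio 0.685), INHBA of day 7 center replicate 3 (7.349 against 7.708 to 7.817, ratio 0.767), TGFBI of day 7 edge replicate 5 (9.686 against 10.335 to 10.593, ratio 0.716) and TGFBR2 of day 11 edge replicate 5 (7.172 against 7.689 to 7.946, ratio 0.668). None of these 10 libraries is among the 8 that lie apart over all genes.

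The difference between edge and center changed over the 7 windows by the interaction test for TGFBR2 (adjusted p = 0.000208), TGFB1 (adjusted p = 0.00549), INHBA (adjusted p = 0.00817), TGFBI (adjusted p = 0.00988), TGFB2 (adjusted p = 0.0271) and LTBP1 (adjusted p = 0.0273).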

How the results depend on the processing

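Over the 9 genes and all comparisons the main counts of calls were 40 higher and 2 lower in the center against day 0, 39 higher and 2 lower at the edge against day 0, 23 lower and 0 higher at the edge against the center, 18 higher and 8 lower in later against earlier windows, and 6 in the interaction. The 2 falls in the center became 1 with no filter, 1 with the animal as a replicate block, 4 without the libraries that lie apart and 5 with all samples in one fit, and 0 to 4 with animals left out. The 2 falls at the edge became 5 with library totals, 4 with each wound on its own, 6 without the libraries that lie apart and 6 in one fit, and 1 to 6 with animals left out. With the block 1 gene was higher at the edge than in the center, and 0 to 1 with animals left out. Later falls went from 8 to 5 in one fit and to between 4 and 6 with animals left out, and the interaction to between 3 and 6. The highest state of SMAD7 lay 0.101 below day 0 (-0.101) on the log2(1+FPKM) scale, and above it in log2(1+CPM). On the log2(1+FPKM) scale another state was highest for TGFBR1, TGFBR2, LTBP1 and SMAD7. Another state was lowest on that scale for TGFB3, TGFBR2, LTBP1 and SMAD7. The causes were not tested.

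Of 261 values compared, 12 gained and 5 lost a call with the block, and no sign of a called fold change turned in any alternative. The counts over all genes that moved by more than 1.5 times were those of the edge on days 19 and 21 against the center (0, with 86 by DESeq2, 9 with the block and 136 in one fit) and against days 11 and 13 (59, with 937 by DESeq2, 30 with no filter, 308 with the block, 1020 with each wound on its own, 1024 in one fit and 0 to 137 with animals left out), of edge against center on days 3 and 4 (3455, with 5735 with the block, 5680 without the libraries that lie apart and down to 1208 without an animal) and of the edge on days 5 and 6 against days 1 and 2 (3834, and 2348 without animal 5). Library totals moved the median of all genes by up to -0.251. They moved the share of calls that were higher from 48.1% to 60.7% in the center on days 1 and 2 and from 50.8% to 35.8% on days 19 and 21 against day 0, from 50.2% to 37.0% and from 50.5% to 28.8% at the edge on days 11 and 13 and on days 19 and 21, from 53.0% to 32.0% and from 50.4% to 33.4% in the first and second later center comparison, and from 54.9% to 42.9%, 47.6% to 20.6% and 74.6% to 51.5% in the 3 at the edge.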
